A study of Mus musculus with 6 samples.

Results

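The steroid dehydrogenase genes *Hsd3b2*, *Hsd3b3*, *Hsd3b4*, *Hsd11b1*, *Hsd17b11*, *Akr1c21* and *Akr1c14* were followed in mouse kidney after ischemia-reperfusion injury (IRI). They are 7 of the 21367 genes measured, taken by their symbol, and all 7 passed the filter on low counts. The choice was made with the difference between the groups in these libraries already known. Their differences between genotypes are therefore given as a description with a standard error (SE), and where calls of tests over all genes include a member nothing is read from them.

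RNA was sequenced from the left kidneys of 3 *Ptpn6*+/mev mice and 3 wild-type littermates, 7 weeks old and on a C57BL/6 background, with 1 library per mouse. *Ptpn6* encodes the phosphatase SHP-1, and the viable motheaten (*mev*) allele changes a base at a splice site. It is a germline allele, so every cell of a *Ptpn6*+/mev mouse carries 1 mutant and 1 normal copy. In both groups the right kidney was removed, the left renal pedicle was clamped for 34 min, and the left kidney was taken after 24 h of reperfusion. Kidneys without IRI were not analysed here, and the sex of the mice was not given in the sources used here.

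Hydroxysteroid dehydrogenases switch a hydroxyl group and a keto group at one position of the steroid ring and so turn steroids on or off for their receptors. The 3beta-HSD enzymes act at position 3, and in the mouse some of them make delta-4 steroids from their precursors while others work as 3-ketosteroid reductases. The 11beta-HSD enzymes control active glucocorticoid inside cells, the 17beta-HSD enzymes act on androgens, estrogens and other lipids, and the Akr1c enzymes are aldo-keto reductases that act on steroids and small carbonyls. The kidney is a target of glucocorticoids, mineralocorticoids and androgens, and the proximal tubule of the mouse is rich in enzymes of this kind.

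Total counts per library ranged from 10271590 to 12361745, and a gene with no count could still hold up to 3 counts, or 0.243 to 0.292 CPM (counts scaled to the library size). Wild-type replicate 2 stood apart from the other 5 libraries. It lay at 53.9 on the first principal component, which held 46.2% of the variance, against -17.5 to -3.76 for the others. The members' differences are therefore given with and without it. *Ptpn6* itself was at 11.9, 14.7 and 13.6 FPKM (fragments per kilobase of transcript, scaled to the library size) in the *Ptpn6*+/mev kidneys and at 17.5, 10.9 and 15.4 in the wild-type kidneys. These groups overlapped, and the log2 difference of -0.19 (SE 0.17) did not pass edgeR's quasi-likelihood test with Benjamini-Hochberg adjustment (adjusted p = 0.715). The mRNA level in these libraries thus did not separate the genotypes. With wild-type replicate 2 left out the log2 difference was -0.34 (adjusted p = 0.201 in the same edgeR test). The authors describe lower SHP-1 expression in heterozygotes and examined the protein by western blot, and these libraries do not measure protein.

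The Hsd3b members lie in a cluster of related copies, some of them near-identical, on chromosome 3, on the minus strand of GRCm38. *Hsd3b4* spans chr3:98499071-98510514, *Hsd3b2* spans chr3:98709255-98724543 and *Hsd3b3* spans chr3:98741523-98763127. Next to them lie *Gm4450*, at chr3:98445675-98457126, and *Gm10681*, at chr3:98552542-98588807, a pair of protein-coding genes named only as gene models. *Hsd3b1*, *Hsd3b5* and *Hsd3b6*, which had no counts in any library, also lie on this strand of the cluster. Of the other members, *Hsd11b1* is at chr1:193221634-193264075 and *Hsd17b11* at chr5:103989762-104021919, both on the minus strand. *Akr1c14*, at chr13:4049011-4090688, and *Akr1c21*, at chr13:4574075-4586541, are on the plus strand within the Akr1c cluster.

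The coding sequences of the Hsd3b members, *Gm10681* and *Gm4450* show which copies a read can tell apart. All 5 genes have a coding sequence of 1119 bases in GENCODE M21. The first 2 lines below hold coding bases 567 to 656 of *Hsd3b2* and *Hsd3b3*, and the last 2 hold coding bases 84 to 173 of *Hsd3b4*, *Gm10681* and *Gm4450*, 5′ to 3′, with capitals at every base that differs within the set.
*Hsd3b2*: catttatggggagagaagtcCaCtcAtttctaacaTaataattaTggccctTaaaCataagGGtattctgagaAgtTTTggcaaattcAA
*Hsd3b3*: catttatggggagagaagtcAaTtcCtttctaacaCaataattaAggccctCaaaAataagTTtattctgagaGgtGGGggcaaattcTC
*Hsd3b4* and *Gm10681*: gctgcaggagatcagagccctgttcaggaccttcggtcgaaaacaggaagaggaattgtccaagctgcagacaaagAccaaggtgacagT
*Gm4450*: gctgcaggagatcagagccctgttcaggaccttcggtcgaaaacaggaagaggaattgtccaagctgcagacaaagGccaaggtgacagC

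*Hsd3b2* and *Hsd3b3* differed at 55 coding bases (95.08% identity), 15 of them in the stretch shown. *Hsd3b4* and *Gm10681* had the same coding sequence throughout, and *Gm4450* differed from both at 4 bases (99.64% identity). *Hsd3b2* and *Hsd3b4* were further apart, at 80.98% identity. Over whole annotated transcripts, 79 of the 3665 stretches of 150 bases in *Hsd3b2* (2.16%), the length of 1 read, were also present in *Hsd3b3*. All 1488 such stretches of *Hsd3b4* were also present in *Gm10681*, and 65.8% of them in *Gm4450*. A single read within the annotated transcript of *Hsd3b4* thus cannot be assigned to it rather than to *Gm10681*. *Akr1c14* and *Akr1c21* shared no stretch of this length with another Akr1c gene.

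The deposited counts carried the trace of this sharing. Counts of *Hsd3b4*, *Gm10681* and *Gm4450* were fractional in all 6 libraries, those of *Hsd3b2* and *Hsd3b3* in 4 of 6, and those of the other 4 members in none. The fractional counts of *Hsd3b2* and *Hsd3b3* added up to a whole number in every library, and so did those of *Hsd3b4*, *Gm10681* and *Gm4450*, within 0.01. Reads were therefore split within these 2 sets and not between them. Sums are accordingly given for the 3 Hsd3b members, for each set and for all 5 genes. The sums over the sets and over all 5 genes were chosen after the counts were seen.

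In the 3beta-HSD genes, levels of *Hsd3b2* and *Hsd3b4* in all 3 *Ptpn6*+/mev kidneys lay above those in every wild-type kidney. The fitted differences were 2.37-fold and 2.19-fold, and both were 1.81-fold without wild-type replicate 2. The mean of *Hsd3b3* lay the other way, at 0.646 of the wild-type level in the fit, with overlapping groups. Summed over *Hsd3b2* and *Hsd3b3*, which share reads, the groups overlapped, and so they did summed over the 3 genes. Summed over *Hsd3b4* and its copies *Gm10681* and *Gm4450* they did not. In FPKM, 14% of the 13036 tested genes were higher in every *Ptpn6*+/mev library than in any wild-type library, 6.38% were lower in every one, and 20.4% did one or the other, so 2 of 7 members is given as a description from which nothing is read. The tissue was whole kidney, in which fewer cells of a type and less RNA per cell cannot be told apart.

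*Hsd3b2* encodes a 3beta-hydroxysteroid dehydrogenase and delta-5 to delta-4 isomerase. It was at 23.2, 13.7 and 15.2 FPKM in the *Ptpn6*+/mev kidneys and at 9.34, 2.92 and 8.4 FPKM in the wild-type kidneys. The lowest *Ptpn6*+/mev value was above the highest wild-type value, and wild-type replicate 2 was the lowest of all. The means were 17.4 ± 5.07 and 6.89 ± 3.47 (SD, n = 3 each), and the fitted log2 difference was 1.24 (SE 0.43), against a pooled SD of 0.77 between mice of a group. It was 0.85 (SE 0.23) without wild-type replicate 2. The FPKM of *Hsd3b2* in wild-type replicate 2 implied a transcript of 1691 bases, and those of the other libraries 1841 to 2085 bases, so the length used for this gene changed between libraries.

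*Hsd3b3*, a further 3beta-HSD of the same kind, was at 7.72, 18 and 11 FPKM in the *Ptpn6*+/mev kidneys and at 25.9, 12.5 and 13.9 FPKM in the wild-type kidneys. The groups overlapped, with *Ptpn6*+/mev replicate 1 lowest and wild-type replicate 1 highest. The means were 12.2 ± 5.24 and 17.4 ± 7.37, and the fitted log2 difference was -0.63 (SE 0.36), little more than the pooled SD of 0.57. It was -0.80 (SE 0.33) without wild-type replicate 2. When each mouse was left out in turn it lay between -1.04 and -0.25.

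How the joint count of *Hsd3b2* and *Hsd3b3* was divided was looked at after the counts were seen and is given without a test. *Hsd3b2* took 81.6%, 51% and 68.2% of their joint count in the *Ptpn6*+/mev kidneys and 34.9%, 22.2% and 47.5% in the wild-type kidneys. The lowest share in the *Ptpn6*+/mev group, 51%, was close to the highest in the wild-type group, 47.5%. The joint count itself, in CPM scaled by the trimmed mean of M values (TMM), was 56.2, 48.6 and 43.5 in the *Ptpn6*+/mev kidneys and 56.2, 24 and 36.3 in the wild-type kidneys. Here the groups overlapped, with wild-type replicate 2 the lowest. The log2 difference of the joint count was 0.35 (SE 0.27), and 0.093 (SE 0.18) without wild-type replicate 2. The exons of *Hsd3b2* and *Hsd3b3* also share 99 and 281 bases with *Zfp697* on the other strand, and the library kit did not mark strand, so reads of these stretches cannot be told apart.

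*Hsd3b4*, known as a 3-ketosteroid reductase of the mouse kidney, was at 25.6, 20.9 and 16.3 FPKM in the *Ptpn6*+/mev kidneys and at 11, 5.05 and 11.5 FPKM in the wild-type kidneys. The groups did not overlap, and wild-type replicate 2 was again the lowest. The means were 20.9 ± 4.68 and 9.18 ± 3.58, and the log2 difference was 1.13 (SE 0.29), against a pooled SD of 0.47. It was 0.86 (SE 0.18) without wild-type replicate 2 and lay between 0.86 and 1.30 when each mouse was left out in turn.

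The copies that share the reads of *Hsd3b4* were measured at higher mean levels than *Hsd3b4*. In wild-type replicate 2, however, *Gm4450* lay below *Hsd3b4*, at 3.83 against 5.05 FPKM. *Gm10681* was at 73, 81.2 and 59.1 FPKM in the *Ptpn6*+/mev kidneys and at 51.1, 9.18 and 43.9 FPKM in the wild-type kidneys. *Gm4450* was at 28.2, 35.6 and 30.4 FPKM and at 22.3, 3.83 and 15.8 FPKM in the same order. Neither gene overlapped between the groups, and in both wild-type replicate 2 was far below the rest. The log2 differences were 0.99 (SE 0.48) for *Gm10681* and 1.11 (SE 0.48) for *Gm4450*, and 0.54 (SE 0.14) and 0.67 (SE 0.15) without wild-type replicate 2.

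The sum over a set does not depend on how reads were split within it. *Hsd3b4*, *Gm10681* and *Gm4450* together reached 197, 210.1 and 159 CPM in the *Ptpn6*+/mev kidneys and 132, 30.2 and 112 CPM in the wild-type kidneys. These groups did not overlap, and the mean of wild-type replicates 1 and 3 was 4.04 times the value of replicate 2. The log2 difference was 1.04 (SE 0.44), or 2.06-fold, and 0.62 (SE 0.13), or 1.54-fold, without wild-type replicate 2. In CPM, 9.61% of the tested genes were higher in every *Ptpn6*+/mev library than in any wild-type library.

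The sum of *Hsd3b2*, *Hsd3b3* and *Hsd3b4* was 96.5, 81.7 and 69 CPM in the *Ptpn6*+/mev kidneys and 74, 32.7 and 54.8 CPM in the wild-type kidneys. This sum takes only the part of its set's reads given to *Hsd3b4*, 13.5% to 29.1% by library with the highest share in wild-type replicate 2, and so still depends on that split. The groups overlapped, since *Ptpn6*+/mev replicate 3 lay below wild-type replicate 1. The means were 82.4 ± 13.8 and 53.9 ± 20.7 (SD, n = 3 each), with a log2 difference of 0.61 (SE 0.27), or 1.53-fold. It was 0.35 (SE 0.16), or 1.28-fold, without wild-type replicate 2.

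Summed over the Hsd3b members with *Gm10681* and *Gm4450*, 5 genes of the cluster, the values were 253, 259 and 203 CPM in the *Ptpn6*+/mev kidneys. They were 189, 54.2 and 148 CPM in the wild-type kidneys. The lowest *Ptpn6*+/mev value lay above the highest wild-type value. The log2 difference was 0.87 (SE 0.38) with all mice and 0.49 (SE 0.13) without wild-type replicate 2. The makeup of this sum also set wild-type replicate 2 apart. There *Hsd3b2* and *Hsd3b3* gave 44.2% of the 5-gene count, against 18.8% to 29.8% in the other 5 libraries.

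**Figure D1:**
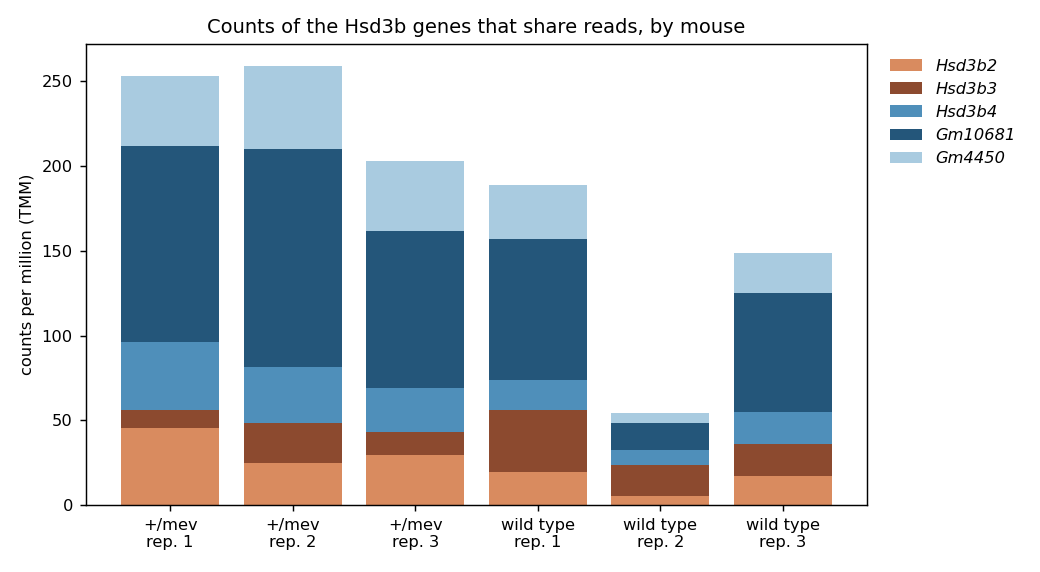
Stacked bars give the TMM-scaled CPM of *Hsd3b2*, *Hsd3b3*, *Hsd3b4*, *Gm10681* and *Gm4450* in each of the 6 kidneys, so that the height is the 5-gene sum. The *Ptpn6*+/mev bars reach 203 to 259 CPM and the wild-type bars 54.2 to 189 CPM, with wild-type replicate 2 the shortest.

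Promoters of *Hsd3b2* and *Hsd3b4*, the members whose groups did not overlap, are shown as a description. Each is the stretch of 300 bases around the gene's start in RefSeq on GRCm38.p6, read on the minus strand. The first covers chr3:98724494-98724793 and the second chr3:98510518-98510817, and capitals mark AGAACA, which reads TGTTCT on the other strand, the letters of a glucocorticoid receptor half-site.
*Hsd3b2*: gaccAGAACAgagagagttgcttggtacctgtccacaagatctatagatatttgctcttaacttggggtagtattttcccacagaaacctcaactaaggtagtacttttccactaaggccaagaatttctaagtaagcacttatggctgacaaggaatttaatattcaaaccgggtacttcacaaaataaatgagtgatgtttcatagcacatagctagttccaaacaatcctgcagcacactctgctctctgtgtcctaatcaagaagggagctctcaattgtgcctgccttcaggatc
*Hsd3b4*: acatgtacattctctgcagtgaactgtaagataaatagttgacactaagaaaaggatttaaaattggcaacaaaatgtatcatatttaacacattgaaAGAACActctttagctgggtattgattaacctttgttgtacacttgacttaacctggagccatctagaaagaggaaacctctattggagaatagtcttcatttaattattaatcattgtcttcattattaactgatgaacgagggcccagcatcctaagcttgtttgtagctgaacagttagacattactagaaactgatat

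Each of these promoters held AGAACA once. No promoter of *Hsd3b3*, *Hsd17b11*, *Hsd11b1*, *Akr1c21* or *Akr1c14* held it or TGTTCT. The *Hsd3b4* stretch lies upstream of the gene's span in GENCODE, and a second RefSeq promoter of *Hsd3b4*, at chr3:98510423-98510722, overlaps it and contains the same match. TGTTCT or AGAACA was present in 19% of the 32851 mouse promoters of this length. The letters AGGTCA or TGACCT, a nuclear receptor half-site searched on both strands, were in 16.3% of all promoters and in none of the members' promoters. A match of 6 letters is a description and not a binding site.

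*Hsd11b1* encodes the reductase that regenerates active corticosterone from its inert keto form, with NADPH supplied by *H6pd*. It was at 73.4, 65.4 and 65 FPKM in the *Ptpn6*+/mev kidneys and at 74, 37.5 and 64.6 FPKM in the wild-type kidneys. The groups overlapped, and all libraries except wild-type replicate 2 lay between 64.6 and 74. The means were 67.9 ± 4.71 and 58.7 ± 19 (SD, n = 3 each). The log2 difference was 0.14 (SE 0.20) and was -0.075 (SE 0.097) without wild-type replicate 2, so its sign rested on that mouse.

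*Hsd17b11* encodes an enzyme of lipid droplets and the endoplasmic reticulum that oxidises androstanediol. It was at 102, 71.6 and 95 FPKM in the *Ptpn6*+/mev kidneys and at 69.6, 118 and 69.1 FPKM in the wild-type kidneys. The groups overlapped, and wild-type replicate 2 was the highest of the 6, at 1.84 times the mean of wild-type replicates 1 and 3 in CPM. The means were 89.4 ± 15.8 and 85.6 ± 28.2. The log2 difference was -0.023 (SE 0.25), and 0.33 (SE 0.14) without wild-type replicate 2. Its sign also differed between the counts and the FPKM values of all 6 mice, so no direction is given.

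*Akr1c21* encodes a 3alpha- and 17alpha-hydroxysteroid dehydrogenase that is abundant in mouse kidney. It was at 36.9, 72.8 and 39.1 FPKM in the *Ptpn6*+/mev kidneys and at 56.7, 65.4 and 32.5 FPKM in the wild-type kidneys. The groups overlapped over most of their ranges, with replicate 2 the highest in each. The means were 49.6 ± 20.1 and 51.6 ± 17, and the log2 difference was -0.13 (SE 0.34), below the pooled SD of 0.56. It was 0.11 (SE 0.30) without wild-type replicate 2.

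*Akr1c14*, a 3alpha-hydroxysteroid dehydrogenase, was the least expressed member, with 15 to 80 counts per library. It was at 1, 0.72 and 0.99 FPKM in the *Ptpn6*+/mev kidneys and at 0.99, 2.88 and 0.5 FPKM in the wild-type kidneys. The groups overlapped, and wild-type replicate 2 had 4.32 times the mean CPM of wild-type replicates 1 and 3. The log2 difference of -0.79 (SE 0.62) became 0.27 (SE 0.39) without that library.

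**Figure D2:**
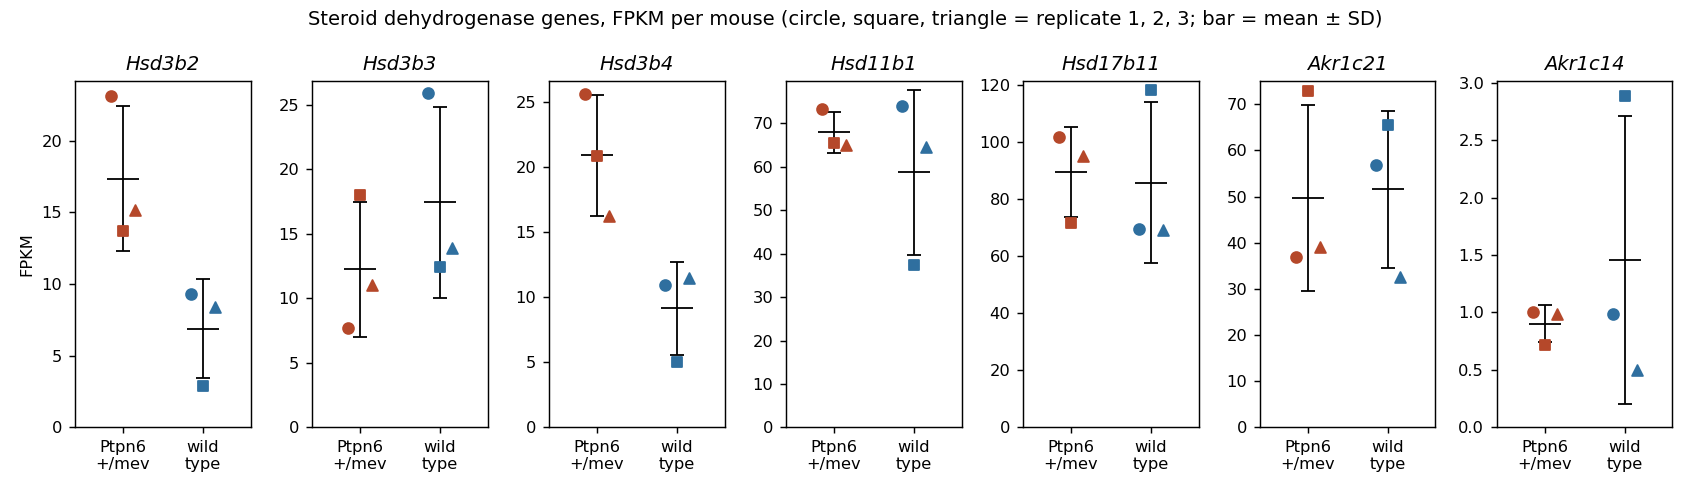
Points give the FPKM of each of the 7 genes in each mouse, on a separate linear axis from 0 for each gene, with the mean and SD (n = 3) as bars. *Hsd3b2* and *Hsd3b4* show separate groups, while the other 5 genes overlap, and wild-type replicate 2 (blue square) is the lowest for *Hsd11b1* and the highest for *Hsd17b11* and *Akr1c14*.

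Across the members, the order of levels per length was much the same in every kidney. *Hsd17b11*, *Hsd11b1* and *Akr1c21* were the 3 highest in FPKM in all 6 libraries, with means over the libraries of 87.5, 63.3 and 50.6. Their ranges overlapped, and the first of them was *Hsd17b11* in 4 libraries, *Akr1c21* in *Ptpn6*+/mev replicate 2 and *Hsd11b1* in wild-type replicate 1. *Hsd3b4*, *Hsd3b3* and *Hsd3b2* followed at means of 15.1, 14.8 and 12.1 FPKM, with overlapping ranges that lay below those of the first 3. Among them *Hsd3b4* ranked first in every *Ptpn6*+/mev kidney and *Hsd3b3* in every wild-type kidney. The ranks of single Hsd3b genes depend on how shared reads were split, so nothing is read from them. The summed FPKM of *Hsd3b4*, *Gm10681* and *Gm4450* had a mean of 90.65 over the libraries. *Akr1c14*, at a mean of 1.18 FPKM, was the lowest in all 6 libraries.

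No member passed an FDR of 0.05 in edgeR's quasi-likelihood test, which called 0.138% of the 13036 genes tested, and 2 of 7 had an unadjusted p under 0.05, against 12.2% of all tested genes. *Hsd3b4* was called by edgeR's exact test, which called 2.99% of genes, by DESeq2, which called 2.87%, and, when wild-type replicate 2 was left out, by the quasi-likelihood test, which then called 1.8%. Since the genes were chosen on this contrast, nothing is read from these counts. Wild-type replicate 2 was the lowest of the 6 libraries in CPM for *Hsd3b2*, *Hsd3b4* and *Hsd11b1* and the highest for *Hsd17b11* and *Akr1c14*. It was the lowest for 30.2% and the highest for 29.5% of all tested genes.

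**Figure D3:**
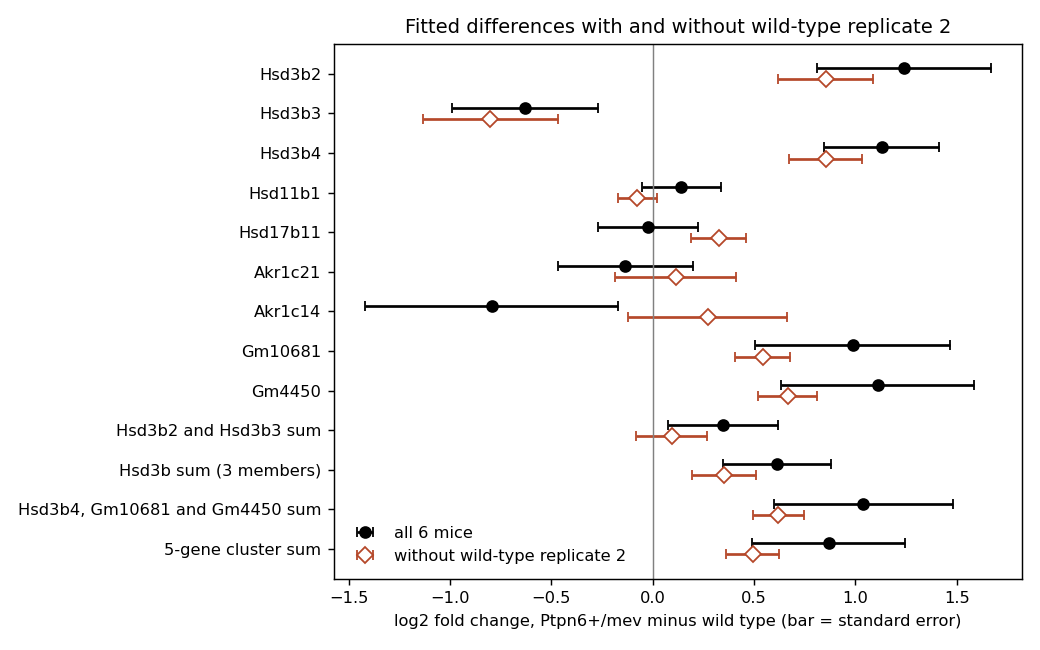
Points give the fitted log2 fold change, *Ptpn6*+/mev minus wild type, with bars of 1 SE, for the members, for *Gm10681* and *Gm4450* and for the sums, with all 6 mice (black circles) and without wild-type replicate 2 (open diamonds). The *Hsd3b2* and *Hsd3b4* estimates move from 1.24 and 1.13 to 0.85 and 0.86, and those of *Hsd11b1*, *Hsd17b11*, *Akr1c21* and *Akr1c14* change sign.

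Genes whose pattern over the 6 libraries was most like that of a member were ranked by the root mean square (RMS) difference of centred log2 CPM, among 11844 genes with a mean of at least 1 FPKM. For the sum of the 3 Hsd3b members, which itself varied with an RMS of 0.50, they were *Palmd* (0.092), *Ptpru* (0.14) and *Hoxa11* (0.14). For *Hsd17b11* (0.33) they were *Cpeb2* (0.058), *Yes1* (0.059) and *Slc38a6* (0.061). For *Hsd11b1* (0.28) they were *Mcc* (0.049), *Sgcb* (0.049) and *Lmcd1* (0.053). For *Akr1c21* (0.47) the nearest genes were further off, *Zfp612* (0.17), *Sept1* (0.20) and *Actr6* (0.21), and for *Akr1c14* (0.78) they included *Cd55* (0.14) and *Arhgap5* (0.24). With 6 libraries, 1 of which stood apart, many genes have a like pattern, and these names are a description.

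The other genes of steroid metabolism and steroid sensing were taken as whole families. Of the 43 found in the table, 23 passed the filter on low counts. None of these passed an FDR of 0.05 in the quasi-likelihood test, against 0.138% of all tested genes. In the same test 5 had an unadjusted p under 0.05, 1 higher and 4 lower in the *Ptpn6*+/mev group, against 12.2% of all tested genes. Log2 differences were above 0 for 5 and below 0 for 18 of the 23, with a median of -0.17, against -0.0024 over all tested genes. The median over the 25 genes tested without wild-type replicate 2 was -0.075, with 7 above and 18 below 0. The test called 2 of them there, as did the exact test and DESeq2, and in each case these were *Srd5a1* and *Hsd17b4*. Both were named after their values were seen.

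*Srd5a1*, the 5alpha-reductase that makes dihydrotestosterone and other reduced steroids, was at 34.3, 40.2 and 35.6 FPKM in the *Ptpn6*+/mev kidneys and at 21.8, 20.5 and 26 FPKM in the wild-type kidneys. Every *Ptpn6*+/mev value lay above every wild-type value. The log2 difference was 0.62 (SE 0.11), and edgeR's quasi-likelihood test gave an adjusted p of 0.0794, its exact test 0.000924 and DESeq2 0.000695. It was 0.58 when wild-type replicate 2 was left out (adjusted p = 0.0349 by quasi-likelihood), and over all its alternatives the adjusted p ran from 0.000695 to 0.369.

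*Hsd17b4*, a peroxisomal enzyme of fatty acid oxidation, was at 121, 111 and 116 FPKM in the *Ptpn6*+/mev kidneys and at 160, 184 and 143 FPKM in the wild-type kidneys. Every *Ptpn6*+/mev value lay below every wild-type value. The log2 difference was -0.56 (SE 0.13), and edgeR's quasi-likelihood test gave an adjusted p of 0.125, its exact test 0.0147 and DESeq2 0.00692. With wild-type replicate 2 left out it was -0.43 (adjusted p = 0.0402 by quasi-likelihood), and over all its alternatives the adjusted p ran from 0.00692 to 0.501.

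By family, the members' relatives gave no call in edgeR's quasi-likelihood test with all mice. In the 3beta-HSD family *Hsd3b7*, an enzyme of bile acid synthesis on chromosome 7, was the only other listed gene tested beside the copies *Gm10681* and *Gm4450* described above, at 22.3 ± 1.59 and 25.7 ± 1.56 FPKM in *Ptpn6*+/mev and wild-type kidneys (adjusted p = 0.344). *Hsd3b1*, *Hsd3b5* and *Hsd3b6* were at 0 in all 6 libraries. All 6 other tested 17beta-HSD genes had log2 differences below 0 with all mice (median -0.31), and 5 of 6 without wild-type replicate 2 (median -0.21). Of these *Hsd17b10*, a mitochondrial enzyme, was at 139 ± 7.14 and 136 ± 7.53 FPKM, with a log2 difference of -0.042 from counts and 0.030 from FPKM, and *Hsd17b12*, which elongates fatty acids, was at 72.2 ± 5.73 and 75.9 ± 7.93 FPKM. *Hsd17b7*, which acts in cholesterol synthesis, was at 7.17 ± 0.59 and 9.4 ± 0.49 FPKM (adjusted p = 0.255).

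In the 11beta-HSD family, *H6pd*, which supplies NADPH to *Hsd11b1*, was at 174 ± 18.6 and 194 ± 19 FPKM (adjusted p = 0.508). *Hsd11b2*, which inactivates corticosterone in the distal nephron, was at 58.4 ± 4.27 and 62.5 ± 4.93 FPKM (adjusted p = 0.623). The median log2 difference of these 2 genes was -0.19, and -0.14 without wild-type replicate 2. Of the other Akr1c genes, listed with the related 5beta-reductase gene *Akr1d1*, 4 were tested (*Akr1c12*, *Akr1c13*, *Akr1c19* and *Akr1d1*), 1 above and 3 below 0, with a median of -0.19. When wild-type replicate 2 was left out, 6 genes of this list other than the members were tested, *Akr1d1* again among them, 4 above and 2 below 0, with a median of 0.52. The direction of the list's median thus differed, but the set of tested genes changed along with the library.

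The 5alpha-reductases gave 1 log2 difference above and 2 below 0 (median -0.16), and the steroid receptors 1 above and 3 below 0 (median -0.13). The medians without wild-type replicate 2 were -0.19 and -0.15, with all 4 receptor genes below 0. The glucocorticoid receptor gene *Nr3c1* was at 14.4 ± 0.80 and 13.7 ± 3.34 FPKM and the mineralocorticoid receptor gene *Nr3c2* at 2.62 ± 0.29 and 2.51 ± 0.43 FPKM. Of the genes for steroid synthesis from cholesterol only *Star*, *Fdx1* and *Fdxr* were tested, with a median of 0.0995 that became -0.022 without wild-type replicate 2. *Fdx1*, a mitochondrial electron carrier, was the most abundant, at 95 ± 9.54 and 84.5 ± 4.03 FPKM.

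**Figure D4:**
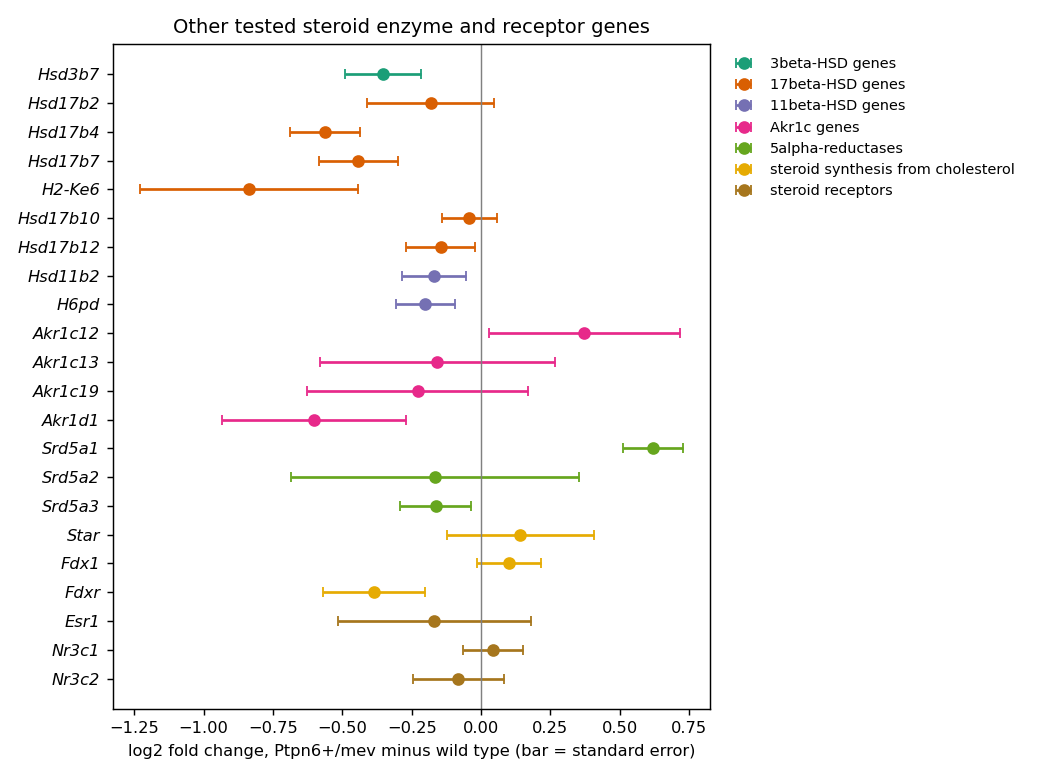
Points give the log2 fold change, *Ptpn6*+/mev minus wild type, of 22 of the 23 tested genes of steroid metabolism and receptors outside the 7 members, with bars of 1 SE and a colour for each family. Of the 22 shown, 17 lie below 0, and *Srd5a1* lies furthest above it at 0.62.

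Markers of adrenal cortex and liver, which lie near the kidney, were also measured. Of 7 adrenal cortex markers, *Cyp11a1*, *Cyp11b2* and *Cyp21a1* were at 0 in all 6 libraries, and only *Star* passed the filter on low counts, at 2.87 ± 0.63 and 2.58 ± 1.39 FPKM. The summed FPKM of the list was 2.16 to 3.41 in the *Ptpn6*+/mev and 1.08 to 3.88 in the wild-type kidneys, with the lowest value in wild-type replicate 2. The 5 liver markers summed to 33.1 to 44.2 and 30.8 to 45.7 FPKM, mostly from *Ttr*, at 32.2 ± 6.36 and 24.5 ± 5.75 FPKM, and *Apoc3*, at 5.27 ± 1.26 and 7.23 ± 1.26 FPKM. No liver marker was called with all mice (median log2 difference -0.54), and without wild-type replicate 2 the median was -0.36 and *Alb* was called lower.

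Summed levels of the proximal tubule markers, which define the kidney's most abundant cells, lay lower in the *Ptpn6*+/mev group. The 11 genes summed to 1144 to 1245 FPKM in the *Ptpn6*+/mev kidneys and to 1469 to 1582 FPKM in the wild-type kidneys, without overlap, and were present in every library. Of the 11, 9 had log2 differences below 0, with a median of -0.44 (-0.50 without wild-type replicate 2), and *Slc22a8* alone passed the quasi-likelihood test (adjusted p = 0.0443). In that test without wild-type replicate 2, 5 fell and none rose. The most abundant were *Slc27a2*, at 482 ± 87.5 and 604 ± 123 FPKM, and *Slc34a1*, at 216 ± 35.1 and 265 ± 77.1 FPKM. The part of proximal tubule markers in the values of the steroid dehydrogenases was not tested.

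The 6 markers of the S3 segment of the proximal tubule summed to 2329 to 3005 FPKM in the *Ptpn6*+/mev and 1662 to 10330 FPKM in the wild-type kidneys. None was called with all mice, the median log2 difference was -0.51, and without wild-type replicate 2 the median was -0.22 and *Slc5a1* was called lower. The sum was led by *Kap*, an androgen-responsive protein of the proximal tubule, at 2644, 2882 and 2190 FPKM and at 2449, 10201 and 1520 FPKM, followed by *Atp11a* at 111 ± 11.3 and 113 ± 14.5 FPKM. *Kap* was thus highest by far in wild-type replicate 2, in which *Hsd17b11* and *Akr1c14* were also highest and *Hsd3b2*, *Hsd3b4* and *Hsd11b1* lowest. The 7 androgen-responsive genes, *Kap* among them, summed to 3270 to 4011 and 2512 to 11040 FPKM, with none called and a median log2 difference of 0.0104, or 0.14 without wild-type replicate 2. *Odc1*, an enzyme of polyamine synthesis, was at 640.4 ± 88.5 and 438 ± 108 FPKM. The genes of this list did not move together in wild-type replicate 2. There *Odc1* and *Gusb* were the lowest of all libraries in FPKM, and *Slco1a1*, *Cyp4b1* and *Acsm3* were the highest, like *Kap*. *Cyp2j13* was neither. The part of androgen response in the members' values was not tested. The 4 Y-linked genes were present in all libraries, with none called and a median of -0.046 that became 0.20 without wild-type replicate 2, and the most abundant, *Eif2s3y* and *Ddx3y*, were at 6.76 ± 0.80 and 6.47 ± 3.82 FPKM and at 2.92 ± 0.49 and 3.01 ± 1.44 FPKM.

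The 9 markers of tubular injury summed to 26940 to 32960 FPKM in the *Ptpn6*+/mev and to 30190 to 39000 FPKM in the wild-type kidneys, with the highest value in wild-type replicate 2. With all mice none was called, and 6 of the 9 log2 differences were above and 3 below 0 (median 0.16). In edgeR's quasi-likelihood test 5 had an unadjusted p under 0.05, against 12.2% of all tested genes. Without wild-type replicate 2 the median was 0.34 and *Krt20* and *Krt18* were called higher. The sum was mostly *Spp1*, at 22930 ± 2360 and 28320 ± 4300 FPKM (log2 difference -0.38), followed by *Clu*, at 2459 ± 152 and 2229 ± 507 FPKM. The 8 macrophage markers summed to 179 to 284 and to 116 to 256 FPKM, again overlapping, with wild-type replicate 2 the lowest and none called. All 8 log2 differences were above 0 with all mice (median 0.21), but 3 were above and 5 below 0 without wild-type replicate 2 (median -0.050), so the direction rested on that library. They were led by *Lyz2*, at 128 ± 49.1 and 91.8 ± 40.4 FPKM, and *C1qb*, at 29.8 ± 4.70 and 25.2 ± 6.97 FPKM. The part of injury and macrophage content in the members' values was not tested.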

How the data were processed

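The authors cleaned paired reads of poly-A RNA, mapped them with TopHat to the build GRCm38.p5 and used Cufflinks for expression levels, and the submitters' processing notes also name Bowtie2 and RSEM. The deposited table holds an estimated count and an FPKM value per gene and library, which the authors made with 1 library per mouse. Which tool gave the counts is not given in the sources used here. Estimated counts were rounded, and 1744 genes had a fractional one. FPKM is per length and was used for levels.

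Counts went through the quasi-likelihood test of edgeR 4.0.16 (R 4.3.3), after filterByExpr and TMM scaling, with Benjamini-Hochberg adjustment over 13036 genes. Log2 CPM used a prior count of 2. Sums of Hsd3b counts replaced their rows in further fits. Figures and descriptions used Python 3.11.15. Alternatives were DESeq2 1.42.0, edgeR's exact test, limma 3.58.1 on log2(FPKM + 1) or log2(FPKM + 0.1), other size factors and filters, a replicate block, and leaving out each mouse.

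The members and the 15 gene lists were chosen with earlier results of these data known. The genes named were the members, the 5 most abundant other steroid genes, any called at an FDR under 0.05, the 2 most abundant of each marker list, and the 3 genes nearest in pattern to the Hsd3b sum and to each of the other 4 members. Values of 2 genes are not reported here. Other names were chosen after their values were seen. *Hsd17b8* is listed as *H2-Ke6*, and *Hsd3b8* and *Hsd3b9* were not matched. Replicates are mice numbered in the labels. The p-values set the difference between the groups against the spread between mice of a group, estimated with the help of all tested genes. Coordinates and transcripts are from GENCODE M21 and promoters from RefSeq.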

Additional observations from a re-analysis of the deposited data

How the results depend on the processing

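Directions held in all 15 alternatives for *Hsd3b2*, *Hsd3b3*, *Hsd3b4* and each Hsd3b sum, in 14 for *Hsd11b1* and *Akr1c14*, in 12 for *Akr1c21* and in 10 for *Hsd17b11*. With each mouse left out in turn, the log2 difference lay between 0.85 and 1.54 for *Hsd3b2* and between 0.35 and 0.90 for the sum of the 3 Hsd3b members, and between -1.23 and 0.27 for *Akr1c14*, the last value being that without wild-type replicate 2. Summing *Hsd3b1* to *Hsd3b7* in place of the 3 members gave 0.25. Of the genes this added, only *Hsd3b7* had counts, and its own log2 difference was -0.354. That sum left out *Gm10681* and *Gm4450*, and adding these to the 3 members instead gave 0.87. The count of all genes at an FDR under 0.05, 18 in the quasi-likelihood test, was 390 with edgeR's exact test, 382 with DESeq2, 52 without a filter on low counts, and 1 to 237 with each mouse left out, the highest without wild-type replicate 2. The count of other steroid genes called, 0 in the quasi-likelihood test, was 2 with the exact test, 2 with DESeq2 and 0 to 2 with each mouse left out. The cause of these shifts was not tested. The replicate numbers did not pair the mice: deviations of same-numbered mice correlated at -0.144, -0.184 and -0.13, and the replicate block left 1 gene called. Depth limits *Akr1c14*, which had as few as 15 counts, and single Hsd3b genes cannot be separated further than the split of shared reads allows.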
